A study of Rattus norvegicus with 15 samples.

Results

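An activin subunit gene, receptor genes of activins or bone morphogenetic proteins (BMPs), and Smad genes were examined in single first molar germs of the rat. The type I receptors were those for BMPs, and the Smads were those that carry the BMP signal and the common Smad4. The receptor Smads of the activin side were not among the 10 genes and are given with the other genes of the pathway. The 10 genes were taken by name, without regard to their values: Inhba, the type II receptor genes Acvr2a, Acvr2b and Bmpr2, the type I receptor genes Acvr1, Bmpr1a and Bmpr1b, and Smad1, Smad5 and Smad4. All 10 of 10 had a row among the 14185 genes of the expected-count table, found through the mouse identifier of each symbol, and all 10 passed the filter on low counts in each comparison.

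The germs came from wild type DA/HanRj embryos, with 1 tooth in each library and 5 libraries at each of 3 stages. The libraries called E15 were labelled E15.5 and those called E17 were labelled E17.5, which the study takes as bud and cap stage, and E18 was labelled as lower first molar of embryonic day 18. No library carried a mutation or a treatment. The labels of E15 and E17 describe homogenisation in TRI Reagent, and those of E18 describe storage in RNAlater. The study's methods give both steps, but name rat germs of E15 and E17 only and none of E18. The sample titles bear a separate code at each stage, so that stage and any preparation that went with the code cannot be told apart. E17 replicates 1 and 2 were the left and the right tooth of 1 embryo. The titles give the other libraries separate embryo numbers, all of a stage under 1 code. Whether they came from separate litters was not established here, and p-values measure the spread between these libraries.

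Activins and BMPs are secreted dimers that bind a type II receptor kinase, which then phosphorylates a type I receptor. The activated type I receptor phosphorylates receptor Smads, Smad2 and Smad3 on the activin side and Smad1, Smad5 and Smad9 on the BMP side, and these enter the nucleus with the common partner Smad4. In the tooth germ such signals pass back and forth between the dental epithelium and the mesenchyme, and mouse embryos without activin βA, the product of Inhba, lack incisors and lower molars.

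Library totals ran from 10993502 to 27571541 counts, so that 3 counts, the limit that a count of 0 allows, stood for 0.109 to 0.273 CPM (counts scaled to a common library total). Such limits cover counting error alone. E18 replicate 3 and, less so, E15 replicate 3 stood apart. The correlation of E18 replicate 3 with the other libraries of its stage averaged 0.862, against 0.948 to 0.953 for the other E18 libraries, and 18.7% of all genes were more than 2-fold below the median of the others there. For E15 replicate 3 the correlation averaged 0.935, against 0.962 to 0.973 for the other E15 libraries, and the share was 5.52%. Tissue markers shifted between stages. All 5 of the epithelium markers with a row (of 9 listed) were higher at E17 than at E15, and their summed level ran from 4345 to 6613 normalized counts at E15, from 8366 to 9694 at E17 and from 10790 to 13941 at E18. Of 8 mesenchyme markers with a row (of 12), 3 were higher at E17 (Col1a1, Dcn and Postn) and 4 lower (Pdgfra, Lhx6, Lhx8 and Msx1), and Pax9 was not called. Their summed level ran from 93329 to 175897 at E15, from 170691 to 304036 at E17 and from 228100 to 304547 at E18. Most of this sum was Col1a1, so it does not follow the 4 that fell. Bone and osteoclast markers (5 of 10 with a row) summed to between 6153 and 12483 over all libraries, most of it Runx2 and Alpl, with 3 higher and none lower at E17 than at E15, and 3 higher and 1 lower at E18 than at E15. The osteoclast protease gene Mmp9 went from 27.5 ± 12.5 normalized counts at E15 to 322 ± 199.7 at E17 and 776 ± 220 at E18, and the bone matrix gene Spp1 from 17.8 ± 16.8 to 210 ± 258 and 223 ± 120. Of these 18 markers 1 was at 0 in any library, the bone gene Spp1 in E15 replicate 3, and none of the listed markers of muscle, cartilage, endothelium, glia or blood could be joined to a row. The part of the tissue mix in any difference below was not tested, and in a bulk sample fewer cells of a type and less RNA per cell cannot be told apart.

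Between E15 and E17 the receptor gene Bmpr1a, the BMP-side Smad5 and the common Smad4 fell to 0.837, 0.857 and 0.837 of their E15 level (n = 5 libraries a stage), whereas the other 7 of the 10 genes were not called. The sequences before the starts of Bmpr1a and Smad5, which fell together, are shown with that of Smad1, the BMP-side partner of Smad5 that was not called. They are the 250 bases before the start that RefSeq gives on the rat build GRCr8, which is a later build than the one named in the labels (Rnor_6.0). Of the 10 genes 8 had such a window, and Acvr1 and Bmpr1b had none. Capitals mark the GC box GGGCGG on either strand.

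Bmpr1a (chr16:9786862-9787111, minus strand): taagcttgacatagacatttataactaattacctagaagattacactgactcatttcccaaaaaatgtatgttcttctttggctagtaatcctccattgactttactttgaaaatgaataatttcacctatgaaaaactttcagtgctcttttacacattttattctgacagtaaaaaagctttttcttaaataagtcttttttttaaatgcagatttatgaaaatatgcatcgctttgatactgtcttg

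Smad5 (chr17:7882609-7882858, minus strand): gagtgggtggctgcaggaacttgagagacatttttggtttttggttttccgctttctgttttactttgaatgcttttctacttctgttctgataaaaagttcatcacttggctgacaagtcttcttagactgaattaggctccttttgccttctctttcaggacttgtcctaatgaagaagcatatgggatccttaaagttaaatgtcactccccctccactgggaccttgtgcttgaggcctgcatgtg

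Smad1 (chr19:45417292-45417541, plus strand): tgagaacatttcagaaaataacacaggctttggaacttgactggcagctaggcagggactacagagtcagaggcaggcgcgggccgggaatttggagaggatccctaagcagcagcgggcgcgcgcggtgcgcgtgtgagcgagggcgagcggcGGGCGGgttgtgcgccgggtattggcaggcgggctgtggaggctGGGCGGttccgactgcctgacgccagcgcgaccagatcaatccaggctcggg

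The short Smad-binding motif CAGAC, searched on both strands, was in none of the 8 windows, and 42.9% of all 33469 windows of this length held it. The GC box was in 3 of the 8, with 2 copies each for Smad1, Acvr2b and Bmpr2, and in 30.5% of all windows. G and C made up 28.4% of the Bmpr1a window, 42.8% of the Smad5 window and 64.8% of the Smad1 window, against a median of 51.2% over all windows. The window of Smad4, also called, was at 30.8%. Those of the uncalled Inhba, Acvr2a, Bmpr2 and Acvr2b were at 43.6%, 49.2%, 61.2% and 76.8%, so Inhba was close to Smad5. Only 1.1% of windows had a lower share than that of Bmpr1a. A match or its absence describes these letters only, and which start the tooth germ uses was not measured.

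The ligand gene Inhba encodes the βA subunit of activin A. Its level, in counts divided by the size factor of the library (normalized counts), was 1493, 1185, 1474, 1395 and 1655 in E15 replicates 1 to 5. It was 1339, 1658, 1556, 1747 and 1456 at E17, and 1428, 1458, 1317, 1722 and 1810 at E18. The 3 stages overlapped throughout, and the means of 1441 ± 171, 1551 ± 161 and 1547 ± 209 (SD, n = 5 each) lay within 1 SD of each other. The log2 fold change from E15 to E17 was 0.12 ± 0.09 (SE), with a 95% interval from -0.08 to 0.32 and an adjusted p of 0.431 by the quasi-likelihood test of edgeR, which gave every adjusted p below unless another test is named. From E17 to E18 it was -0.004 ± 0.11 (interval -0.24 to 0.23). Inhba thus showed no called difference.

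**Figure D1:**
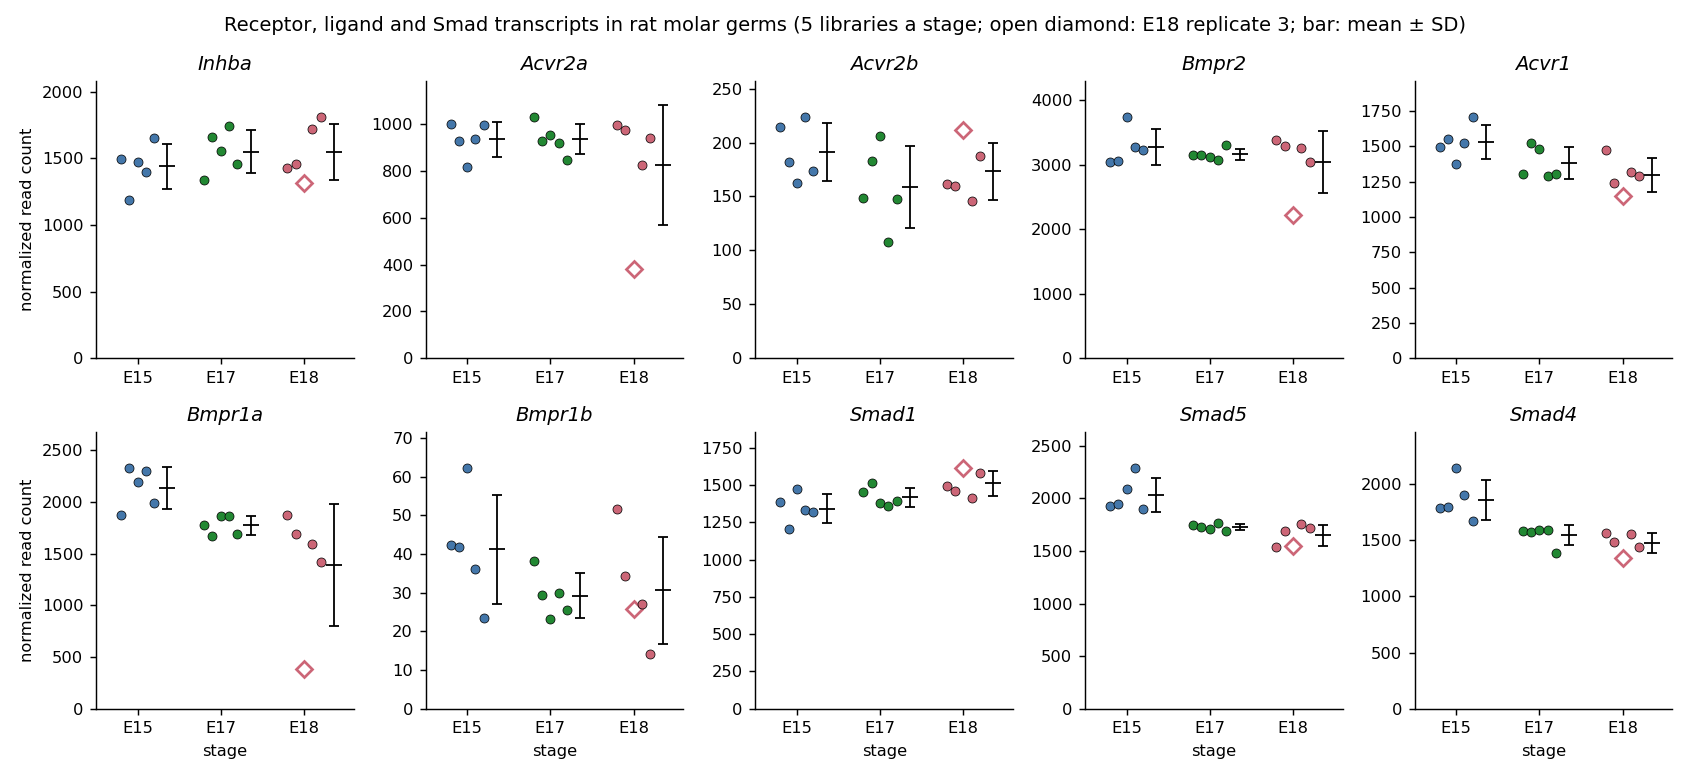
Normalized read counts (y axis, from 0) of the 10 genes in each library at E15, E17 and E18 (x axis), with the mean ± SD of 5 libraries beside the points and E18 replicate 3 as an open diamond. Bmpr1a, Smad5 and Smad4 sit higher at E15 than at E17 without overlap, and E18 replicate 3 is far below the others for Bmpr1a (383) and Acvr2a (383).

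The antagonist gene Fst, whose product follistatin binds activin, rose, whereas Inhba was not called. It went from 462 ± 62.6 normalized counts at E15 to 628 ± 51.2 at E17 and 719 ± 67.9 at E18, with a log2 fold change of 0.45 ± 0.10 from E15 to E17 (adjusted p = 0.00588). The ratio of Inhba to Fst counts within a library was 3.04, 2.54, 3.28, 3.80 and 3.09 in E15 replicates 1 to 5, 1.92, 2.79, 2.35, 2.83 and 2.56 at E17, and 2.12, 2.01, 1.70, 2.73 and 2.28 at E18. Counts are not corrected for transcript length, so the size of a ratio is not a ratio of molecules. A length that stays the same between stages does not touch the change of the ratio. Whether the transcript forms in use changed between stages was not tested. The log2 ratio fell by 0.54 from E15 to E18, where the stages overlapped in 1 place, as E18 replicate 4 exceeded E15 replicate 2, and the exact two-sided permutation test gave p = 0.0159, or 0.0635 after adjustment over the 12 ratio tests. From E15 to E17 the difference was -0.34 (exact p = 0.0476, adjusted 0.143), and from E17 to E18 -0.20 (exact p = 0.222, adjusted 0.381). None of the 3 passed the threshold, and with 5 libraries against 5 the smallest p this test can give is 0.00794.

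Likeness to Inhba was compared for 349 of the 14185 genes only. These were genes of the study's lists with a symbol and a mean of at least 10 normalized counts. By Pearson correlation of log2 CPM over the 15 libraries, the most alike of them was Runx3, a Runt-domain transcription factor, with r = 0.78. Wnt5a, a non-canonical Wnt ligand (r = 0.61), and Fgfr2, a fibroblast growth factor receptor (r = 0.60), followed. These are descriptions over libraries that share stage, depth and tissue mix.

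The type II receptors start the signal. Acvr2a, which binds activins and also some BMPs, had 1001, 930, 815, 935 and 994 normalized counts in E15 replicates 1 to 5 and 1029, 929, 953, 920 and 847 at E17. At E18 it had 997, 975, 383, 827 and 941, where replicate 3 alone was at 0.40 of the median of the other libraries of its stage. The E15 and E17 libraries overlapped fully, with means of 935 ± 74.6 and 936 ± 65.5, a log2 fold change of 0.01 ± 0.07 and an interval from -0.14 to 0.16. From E17 to E18 the log2 fold change was -0.18 ± 0.21 (adjusted p = 0.679), and it was -0.01 without E18 replicate 3. Acvr2b, its close relative, ran from 162 to 224 normalized counts at E15, from 108 to 206 at E17 and from 146 to 212 at E18. Its differences were not called, with a log2 fold change of -0.26 ± 0.17 from E15 to E17 (interval -0.62 to 0.10). In E18 replicate 3, where Acvr2a was lowest, Acvr2b had its highest E18 level of 212.

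Bmpr2, the type II receptor that prefers BMPs, was not called in any comparison. It ran from 3049 to 3740 normalized counts at E15, from 3070 to 3313 at E17 and from 2218 to 3391 at E18, where the lowest value again belonged to replicate 3. The log2 fold change was -0.04 ± 0.06 from E15 to E17 and -0.06 ± 0.11 from E17 to E18. The log2 ratio of Acvr2a to Acvr2b differed by 0.29 between E17 and E15 (exact p = 0.175, adjusted 0.349) and by -0.11 between E18 and E15 (exact p = 0.952, adjusted 0.952), the latter becoming 0.22 without E18 replicate 3.

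The type I receptors pass the signal to the Smads, and Bmpr1a, a type I receptor for BMPs also known as ALK3, was the 1 called gene among them. It had 1871, 2331, 2195, 2297 and 1986 normalized counts in E15 replicates 1 to 5 and 1779, 1676, 1869, 1861 and 1690 at E17. Every E17 library was below every E15 library, with 1869 and 1871 as the nearest values. The log2 fold change was -0.26 ± 0.07 (interval -0.41 to -0.10), a level at E17 of 0.84 of that at E15, with an adjusted p of 0.0222. In 1 fit over all 15 libraries, which shares the spread of the E18 libraries, the log2 fold change was -0.26 ± 0.27 and the call was lost (adjusted p = 0.653). At E18 the values were 1875, 1693, 383, 1594 and 1416, of which replicate 1 reached into the E15 range and replicate 3 was at 0.23 of the median of the others. The difference of E18 from E15 was -0.61 ± 0.32 with all libraries (adjusted p = 0.202) and -0.36 ± 0.09 without E18 replicate 3 (adjusted p = 0.0123), so that this 1 library decided both the size and the call.

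Acvr1, a type I receptor for BMPs also known as ALK2, ran from 1372 to 1707 normalized counts at E15, from 1291 to 1525 at E17 and from 1146 to 1475 at E18. Its log2 fold change was -0.14 ± 0.07 from E15 to E17 (adjusted p = 0.213) and -0.23 ± 0.09 from E15 to E18 (adjusted p = 0.0962), neither called. Bmpr1b, the other BMP type I receptor, was at low counts, from 23.5 to 62.3 normalized counts at E15, from 23.3 to 38.2 at E17 and from 14.2 to 51.7 at E18. Its log2 fold change from E15 to E17 was -0.49 ± 0.28, with an interval from -1.09 to 0.12, and the spread between its libraries was 34.0%, 19.6% and 45.2% of the mean at E15, E17 and E18. That interval also holds a change as large as that of Bmpr1a. The log2 ratio of Bmpr1a to Bmpr1b, which carries the same counting error, differed by 0.18 between E17 and E15 (exact p = 0.492, adjusted 0.590).

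**Figure D2:**
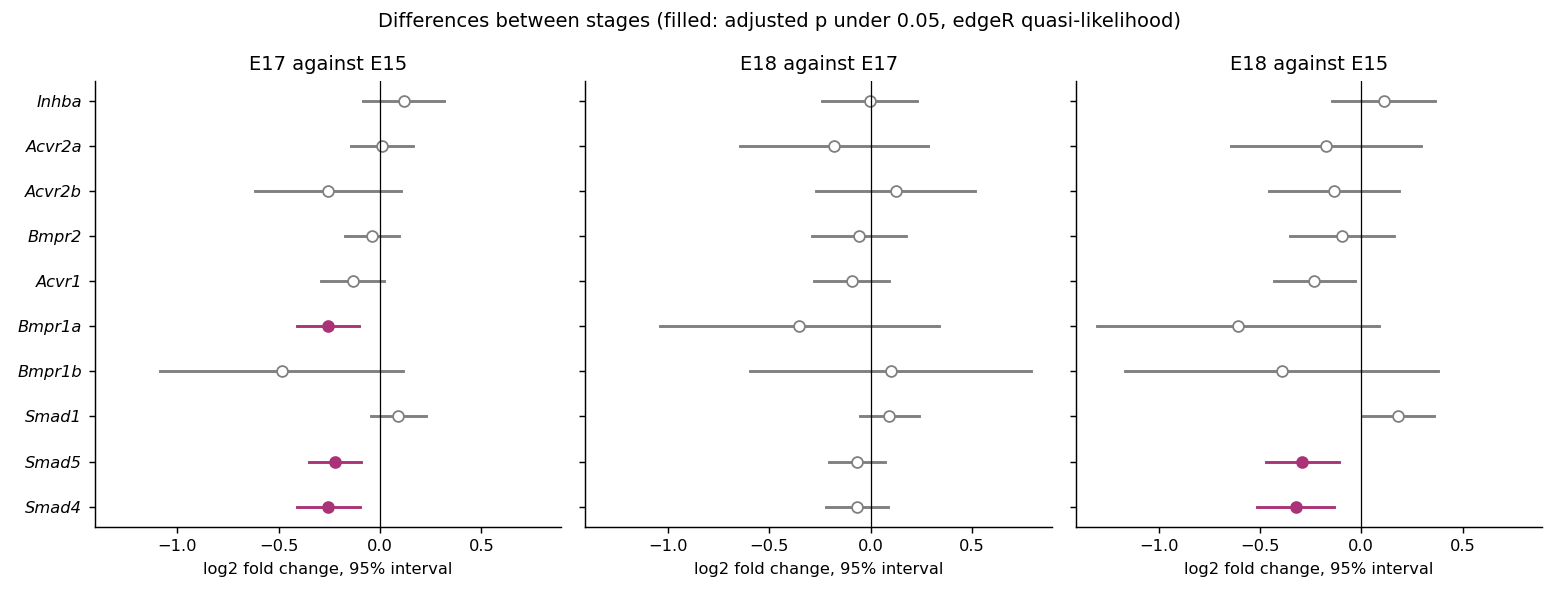
Log2 fold changes with 95% intervals (x axis) of the 10 genes (y axis) in 3 comparisons of stages, filled where the adjusted p was under 0.05. Bmpr1a (-0.26), Smad5 (-0.22) and Smad4 (-0.26) are filled from E15 to E17, none from E17 to E18, and the E18 intervals of Bmpr1a and Acvr2a are wide.

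Among the Smads the levels of the BMP-side pair, Smad5 and Smad1, changed relative to each other. Smad5 had 1928, 1942, 2090, 2289 and 1897 normalized counts in E15 replicates 1 to 5, 1746, 1724, 1711, 1764 and 1689 at E17, and 1541, 1689, 1546, 1755 and 1715 at E18. All E15 libraries were above all later ones. The log2 fold change was -0.22 ± 0.06 from E15 to E17 (adjusted p = 0.0205) and -0.29 ± 0.08 from E15 to E18 (adjusted p = 0.0272). Smad1 had 1388, 1203, 1469, 1330 and 1315 at E15, 1452, 1514, 1378, 1358 and 1390 at E17, and 1494, 1461, 1614, 1412 and 1577 at E18. These overlapped between stages, with a log2 fold change of 0.09 ± 0.06 from E15 to E17 (adjusted p = 0.357) and 0.18 ± 0.08 from E15 to E18 (adjusted p = 0.134), neither called.

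The difference between the 2 Smads was tested within libraries. The ratio of Smad1 to Smad5 counts was 0.720, 0.620, 0.703, 0.581 and 0.693 in E15 replicates 1 to 5, 0.832, 0.879, 0.805, 0.770 and 0.823 at E17, and 0.970, 0.865, 1.04, 0.805 and 0.919 at E18. Every later library exceeded every E15 library. The log2 ratio rose by 0.31 from E15 to E17 and by 0.47 from E15 to E18 (exact two-sided permutation p = 0.00794 in both, the smallest possible, and 0.0476 after adjustment over 12). From E17 to E18 the difference of 0.16 did not pass (exact p = 0.0714, adjusted 0.171). Both comparisons share the E15 libraries, and the adjusted p passed only because both stood at the smallest possible value. The ratio needs no scaling between libraries. It passed under all 23 alternatives run for these 2 comparisons, but these were not a strict trial. Leaving out or summing libraries cannot make separated stages overlap, and a larger pseudocount is small beside these counts. The 23 passes therefore add no support.

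**Figure D3:**
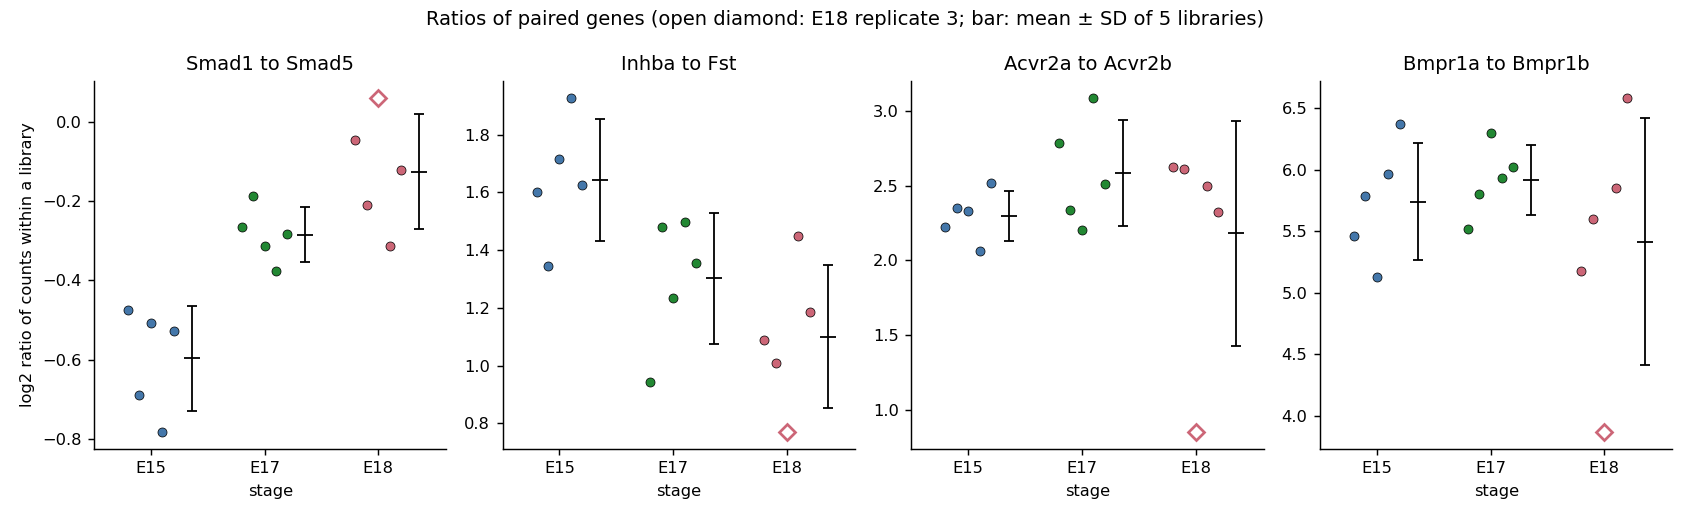
Log2 ratios of counts within each library (y axis) for 4 pairs of genes by stage (x axis), with mean ± SD of 5 libraries and E18 replicate 3 as an open diamond. The Smad1 to Smad5 ratio is below -0.45 in all E15 libraries and above -0.40 in all later ones, and E18 replicate 3 is lowest for the other 3 ratios.

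Smad4, the partner of all receptor Smads, had 1784, 1793, 2141, 1896 and 1670 normalized counts in E15 replicates 1 to 5, 1578, 1575, 1590, 1587 and 1386 at E17, and 1561, 1482, 1339, 1550 and 1439 at E18. As with Smad5, all E15 libraries were above all later ones. The log2 fold change was -0.26 ± 0.07 from E15 to E17 (adjusted p = 0.0250) and -0.32 ± 0.09 from E15 to E18 (adjusted p = 0.0210).

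Counted together, 3 of the 10 genes were called lower and none higher from E15 to E17, where 7.02% of 12627 genes were called lower, 11.3% higher and 18.3% in either direction. The same 3 were without overlap, as were 7.04% of all genes in that direction. From E15 to E18 the called genes were Smad5 and Smad4, 2 of 10 and both lower, where 6.73% of 12661 genes were called lower, 14.2% higher, and 10.3% lay lower without overlap. From E17 to E18 edgeR called 0 of 10, with 0 of 10 at an unadjusted p under 0.05 and 0 of 10 by DESeq2, where 2.54% of 12718 genes were called and 15.9% had an unadjusted p under 0.05. The median log2 fold change of the 10 was -0.18, -0.06 and -0.20 from E15 to E17, E17 to E18 and E15 to E18, beside medians over all genes tested of -0.01, -0.02 and -0.02. Leaving out single libraries ended calls. Without E17 replicate 5 none of the 3 passed (adjusted p of 0.0583, 0.0503 and 0.0665 for Bmpr1a, Smad5 and Smad4), and without E15 replicate 4 Smad5 alone passed from E15 to E17 and none from E15 to E18, with every sign kept. Without E15 replicate 3, which held the highest E15 level of Smad4, the log2 fold changes of Bmpr1a, Smad5 and Smad4 from E15 to E17 were -0.24, -0.21 and -0.20 (adjusted p of 0.0177, 0.0159 and 0.0187).

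Between right and left teeth, 6 and 9 in number, edgeR with stage as a covariate called 0 of the 10, with 0 of 10 at an unadjusted p under 0.05 and 0 by DESeq2. It called 0% of 13013 genes, with 0.914% of them at an unadjusted p under 0.05. Without any difference a share near 0.05 would be expected, so this share is low. The 0 of 10 therefore does not show that the sides agree, and the cause of the low share was not tested.

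The genes differed in how closely the teeth of a stage resembled each other. The SD of log2 normalized counts within stages, pooled over the stages, was 0.08 for Smad5 and 0.09 for Smad1. Of all genes tested, 2.12% and 2.31% had a smaller one. It was 0.55 for Bmpr1a and 0.35 for Acvr2a with all libraries, and 0.13 and 0.11 without E18 replicate 3. Without that library the values of Smad5 and Smad1 were 0.08 and 0.08, with 7.09% and 7.46% of genes below them, and the median over all genes was 0.17. E18 replicate 3 thus set the spread of these 2 receptors and not that of the Smads, with Smad1, Smad5 and Smad4 there at 1.09, 0.91 and 0.88 of the median of the others. In that library 7.55% of all genes lay further below the median of the others than Bmpr1a and 13.7% further than Acvr2a. Both genes had the same count of 343 there, a value held by 11 genes of that library, where each count value from 300 to 400 was held by 9.52 genes on average.

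**Figure D4:**
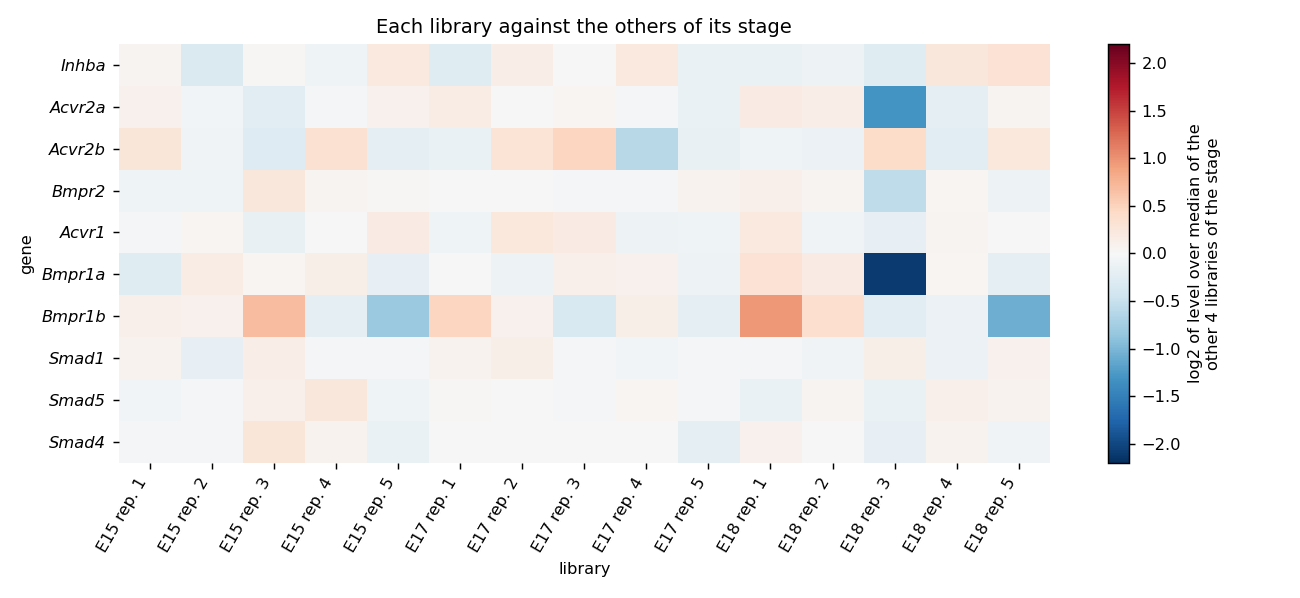
Log2 of each gene's level over the median of the other 4 libraries of its stage, as colour, for the 10 genes (y axis) in the 15 libraries (x axis). E18 replicate 3 is at -2.10 for Bmpr1a, -1.32 for Acvr2a and -0.56 for Bmpr2, and the Smad rows are pale in every library.

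The other genes of the pathway were taken from lists by role. Acvr1b, Acvr1c, Tgfbr1 and Smad9 could not be joined to a row. On the activin and TGF-β side of the Smads, Smad3 fell from 2447 ± 145 to 2144 ± 92.0 normalized counts between E15 and E17 (log2 fold change -0.18 ± 0.06, adjusted p = 0.0415) and to 2011 ± 73.1 at E18 (-0.27 ± 0.07 from E15, adjusted p = 0.0210), while Smad2 was not called (-0.11 ± 0.06 from E15 to E17). Of the receptors for TGF-β, Tgfbr2 rose by 0.39 ± 0.08 on the log2 scale from E15 to E17 (adjusted p = 0.00509), opposite in sign to Bmpr1a, and the co-receptor gene Tgfbr3 was not called (0.06 ± 0.13).

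Of 13 other ligand genes tested from E15 to E17 (of 18 listed), 3 rose, 1 fell and 9 were not called. Inhbb, the activin βB subunit, went from 12.9 ± 3.69 to 50.7 ± 8.15 normalized counts (log2 fold change 1.95 ± 0.27) and was at 72.0 ± 15.3 at E18, while Inhba, the other activin subunit gene measured, was not called. Tgfb3 rose by 0.74 ± 0.09 on the log2 scale. The other 2 were Bmp7, which rose by 0.65 ± 0.08 and is named here after its value was seen, and Bmp2, with a log2 fold change of -0.45 ± 0.11. Bmp2 also fell from E17 to E18, as the 1 called gene of 12, by 0.75 ± 0.14 on the log2 scale (adjusted p = 0.0230). From E15 to E18, 4 of 12 rose and 1 fell, led by Inhbb (2.46 ± 0.26) and Bmp2 (-1.20 ± 0.16), and Bmp4, a BMP of the early dental epithelium and mesenchyme, was not called in any comparison (0.45 ± 0.17 from E15 to E18, adjusted p = 0.0879).

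Of 9 secreted antagonists listed, 3 are described here. Of these 3, 2 rose and none fell from E15 to E17, and the same held from E15 to E18. None was called from E17 to E18. Sostdc1, an antagonist of BMP and Wnt signals, had a log2 fold change of 1.32 ± 0.26 (adjusted p = 0.00328), and Fst is given above. In E15 replicate 3 Sostdc1 was at 3362 normalized counts, against 1184 to 1456 in the other E15 libraries. Noggin (Nog) was not called (0.12 ± 0.19).

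The 3 response genes with a row (of 10 listed) took different courses. Msx1, a homeobox gene of the dental mesenchyme, fell by 0.42 ± 0.11 on the log2 scale from E15 to E17 (adjusted p = 0.0136) and by 0.56 ± 0.13 from E15 to E18. Msx2, its relative, rose by 1.41 ± 0.16 from E17 to E18 (adjusted p = 0.00144), from 173 ± 31.9 to 462 ± 72.3 normalized counts, and by 1.99 ± 0.34 from E15 to E18. Lef1, a transcription factor of Wnt signalling listed here as a response gene, rose by 0.50 ± 0.15 from E15 to E18 and was not called from E15 to E17 (0.14 ± 0.13).

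Of 20 intracellular cofactors, kinases and small GTPases for the most part, 1 rose and none fell from E15 to E17, which was the phosphatidylinositol kinase subunit gene Pik3r2 (0.32 ± 0.07). None was called from E17 to E18. From E15 to E18, 3 rose and 1 fell, led by Hras (0.56 ± 0.11) and by Map2k6 (-0.52 ± 0.15). Of 3 other transcription factors, none was called from E15 to E17, and Jun rose by 1.05 ± 0.18 on the log2 scale from E17 to E18 (adjusted p = 0.0137). From E15 to E18 Jun (1.00 ± 0.19) and Nfkb2 (0.45 ± 0.12) rose.

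**Figure D5:**
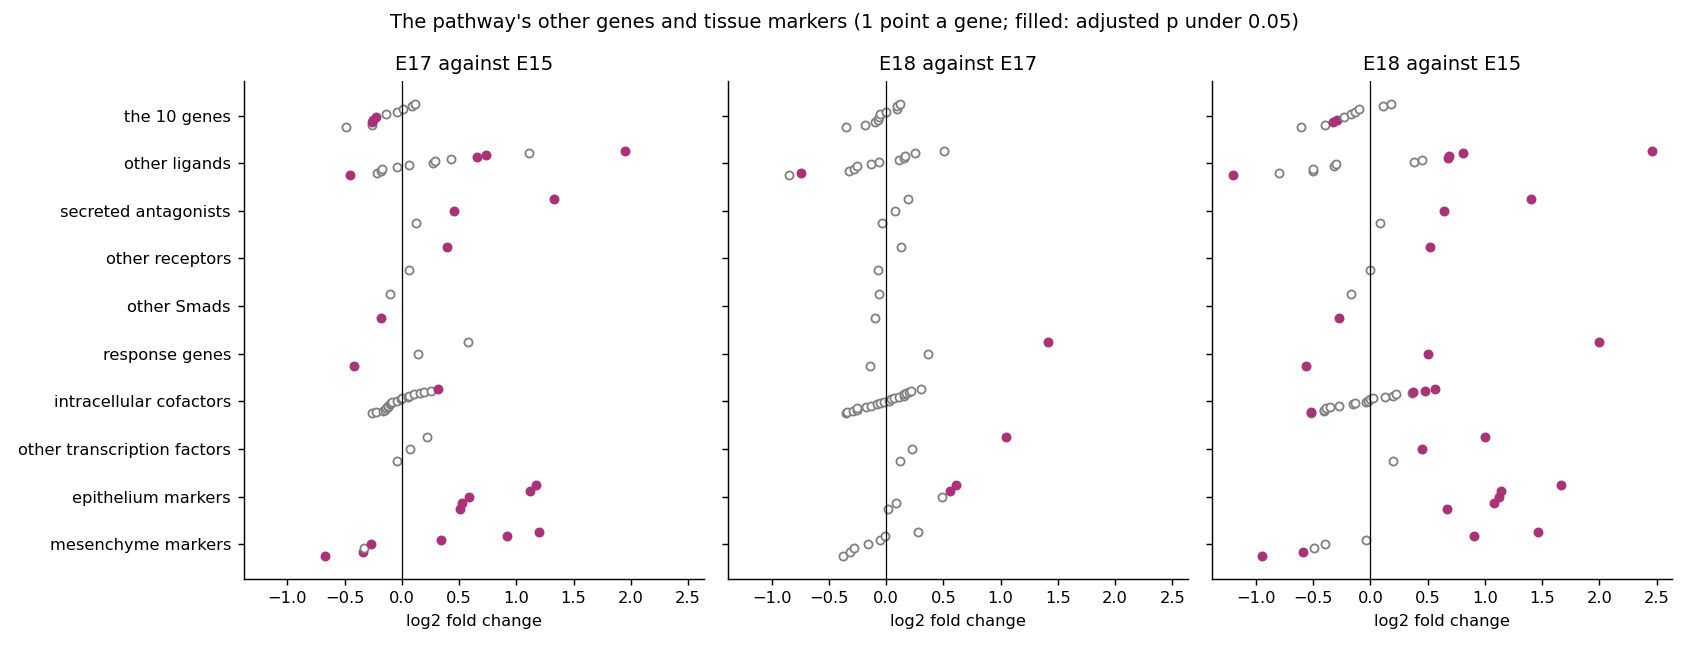
Log2 fold changes (x axis) of the 10 genes, the pathway's other genes and tissue markers by list (y axis), 1 point a gene and filled where the adjusted p was under 0.05, with Msx1 drawn once among the response genes. The called members lie between -0.22 and -0.32, while called antagonists lie between 0.45 and 1.40.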

How the data were processed

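RNA was measured in 15 single-tooth libraries prepared with the Ovation Rat RNAseq System. The authors deposited expected counts from Salmon, written as whole numbers under mouse Ensembl identifiers for 14185 genes and neither normalized nor corrected for length. The submitters' notes for E18 name Salmon 0.99.0, Trimmomatic 0.39 and Rnor_6.0. Those for E15 and E17 name STAR, HTSeq, Trimmomatic and Rnor_6.0 and not Salmon. Any difference in processing between E18 and the earlier stages cannot be told apart from stage. The study's methods assign its mouse gene classes to rat genes by single-copy orthology from Ensembl. Whether the mouse identifiers of this table were made in that way, and whether strand was used, is not given in the sources used here, so near-identical paralogs and overlapping genes are uncertain. Rounding changed no value. A second deposited table of read counts, with 10 columns for E15 and E17, was not used here, because its rat identifiers could not be joined to symbols. Symbols came from the gene lists that accompany the study, which give 399 symbols with a mouse identifier, and 356 of these were in the table.

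Each pair of stages was fitted over all genes with the quasi-likelihood test of edgeR 4.0.16 (R 4.3.3, filterByExpr, TMM), with Benjamini-Hochberg adjustment over all genes tested and a threshold of 0.05. SEs were derived from the F statistic. Normalized counts used DESeq2 1.42.0 size factors. Ratios used a pseudocount of 0.5 and exact two-sided permutation tests. The scripts were tested on simulated data. Chi-square per gene between libraries of a stage ran from 6.05 to 151 over 30 pairs, so none was counted as a repeat. Alternatives covered DESeq2, RLE scaling, filters, side, a fit over all stages, the joined teeth of 1 embryo, a 2-fold threshold and leaving out each library. Genes named were all 10, fixed relatives (Acvr1b, Acvr1c, Tgfbr1-3, Smad2, Smad3, Smad9, Fst), the 2 largest called changes of each other list, and the 3 genes most like Inhba. One gene of the pathway lists is not reported here. The members and lists were chosen with earlier results of these data known.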

Additional observations from a re-analysis of the deposited data

Results flagged for a closer look

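Of 45 groups of 5 libraries examined for a single value far from the other 4 (the 10 genes and 4 ratios at 3 stages, and library totals), 6 held one, where chance flags about 1 in 20, or 2.25 here. In E18 replicate 3, Acvr2a was at 383 normalized counts against 827 to 997 in the other E18 libraries, and the log2 ratio of Acvr2a to Acvr2b was 0.85 against 2.32 to 2.62. Bmpr1a, at 383 there against 1416 to 1875, did not meet this rule because the other E18 libraries were themselves spread. Smad4 was at 1386 normalized counts in E17 replicate 5 against 1575 to 1590 in the other E17 libraries. The total of E15 replicate 1 was 24109716 counts against 11883608 to 12707658, that of E17 replicate 3 was 16239849 against 11814893 to 12762839, and that of E18 replicate 1 was 27571541 against 10993502 to 13527608.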

How the results depend on the processing

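The directions and calls of the 10 genes were recomputed under each alternative, 1 choice at a time. No paired analysis was possible because the replicate numbers follow the order of deposit and pair no samples. Of 700 fold changes so obtained, 648 kept both direction and side of the threshold, 36 changed sign (23 of them right against left, none past the threshold in either fit), 13 lost a call and 3 gained one. With a minimum change of 2-fold, 0 members were called from E15 to E17 and 0 from E15 to E18, and the calls over all genes went from 2315 to 507 (E17 against E15), from 323 to 139 (E18 against E17) and from 2656 to 1058 (E18 against E15). One fit over all 15 libraries called 1514 genes between E15 and E17. Between E17 and E18, DESeq2 called 665 genes, and 212 were called with E17 replicates 1 and 2 summed. When single libraries were left out, the members called ranged from 0 to 3 for E17 against E15 and from 0 to 3 for E18 against E15, and the genes called between E17 and E18 from 141 to 713.

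Bmpr1a lost its call for E17 against E15 in the fit over all 15 libraries (edgeR adjusted p = 0.653) and without E15 replicate 4, E17 replicate 2 or E17 replicate 5 (0.0533, 0.0561 and 0.0583). Smad5 lost it without E17 replicate 3 or 5 (0.0521 and 0.0503), and Smad4 without E15 replicate 4 or E17 replicate 5 (0.0502 and 0.0665). For E18 against E15, Smad5 lost its call without E15 replicate 4, E18 replicate 1 or E18 replicate 2, and Smad4 without E15 replicate 4 or E18 replicate 5 (0.0511 and 0.0574). Acvr1 gained one in the fit over all libraries (0.045) and without E18 replicate 1 (0.0482), as did Bmpr1a without E18 replicate 3 (0.0123). The cause was not tested.

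With single libraries left out, these log2 fold changes took both signs, none of them called. For E17 against E15, Acvr2a ranged from -0.0351 to 0.0431 and Bmpr2 from -0.0628 to 0.0141, and Acvr2a was -0.00674 with E17 replicates 1 and 2 summed. For E18 against E17, Inhba ranged from -0.0671 to 0.0395, Bmpr2 from -0.10 to 0.0314 and Bmpr1b from -0.21 to 0.27. For E18 against E15, Acvr2a ranged from -0.25 to 0.0108 and Bmpr2 from -0.14 to 0.00117. For right against left, Inhba ranged from -0.00682 to 0.0655, Acvr2a from -0.0414 to 0.12, Acvr2b from -0.00325 to 0.13, Acvr1 from -0.0321 to 0.0322, Bmpr1a from -0.0643 to 0.19, Bmpr1b from -0.20 to 0.0797, Smad1 from -0.0311 to 0.0126 and Smad4 from -0.0374 to 0.0161. Acvr1 was also -0.000934 by DESeq2, -0.000585 with no filter on low counts and -0.0403 with E17 replicates 1 and 2 summed. Among the ratios, Acvr2a to Acvr2b for E18 against E15 ranged from -0.22 to 0.22 and Bmpr1a to Bmpr1b from -0.62 to 0.0602. Inhba to Fst ranged from -0.42 to -0.25 (E17 against E15) and from -0.63 to -0.46 (E18 against E15), and passed in both only without E15 replicate 2 (exact permutation test, adjusted p = 0.0476). The alternative on the second count table was not run, since its rat identifiers could not be joined to symbols here.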
